A study of Mus musculus with 68 samples.

Results

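The 38 genes described here encode the subunits of integrins, the chains of laminins and both nidogens. They were picked by gene symbol from the platform annotation, with earlier results of these data known. They make up 38 of the 24583 gene names measured on the array: 18 integrin alpha subunits, 8 integrin beta subunits, 10 laminin chains and 2 nidogens. They were read by 97 features, and each gene is given by its brightest feature, taken by the mean over all 68 arrays. All 38 genes passed the filter on low values in each fit, which asked for a reading above the 40th percentile of the array (5.3192 to 5.3213 on the log2 scale, depending on the array) on at least 4 arrays.

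Integrins are cell-surface receptors made of an alpha and a beta subunit, which hold cells to the matrix or to other cells and signal in both directions across the membrane. Laminins are trimers of an alpha, a beta and a gamma chain that polymerise into the sheet of the basement membrane, and nidogens bridge that sheet to type IV collagen. In the lung, alveolar epithelium and capillary endothelium share a fused basement membrane across the septal wall, vascular smooth muscle is wrapped in its own, and leukocytes carry integrins of the beta 2 and beta 7 families with which they leave the blood.

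The arrays measured RNA from mouse lung tissue taken by laser microdissection as alveolar septa or as vessel compartment, with 34 arrays of each. After 3 months of exposure there were, in each compartment, 5 Fgf10 knock-down arrays under cigarette smoke, 4 Fgf10 knock-down arrays in room air, 5 wild-type arrays under smoke and 5 wild-type arrays in room air. After 8 months of exposure and a further 1 week with or without doxycycline there were 5 arrays labelled Fgf10 overexpressing after smoke, 5 smoke controls and 5 room air controls. The 8 months are those of the treatment text and titles, while the growth text gives 3 months for every sample. The treatment text names wild-type, Fgf10+/- and Fgfr2b+/- animals for the 3-month arm. It gives neither the promoter behind the doxycycline-driven expression nor the age of the mice, and the sample labels do not say which of the heterozygous genotypes an array labelled knock-down came from. Fgf10 is made by mesenchymal cells of the lung and signals to epithelium through the receptor Fgfr2b. The labels tie no septa array to a vessel array of the same mouse, so p-values measure the spread between arrays.

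Of the 34 septa arrays, 2 stood apart: knock-down smoke replicates 1 and 5 had median correlations with the other septa arrays of 0.287 and 0.00546, against 0.745 or more for the other 32. In vessel, knock-down smoke replicate 5 had 0.468, against 0.709 or more for the other 33. These 3 are called the low-correlation arrays below. Values are over all arrays unless stated, and the main counts of members called are also given without these 3. Fgf10 itself averaged 8.36 ± 0.60 (SD, n = 4) on knock-down septa arrays in room air, against 7.71 ± 0.58 (SD, n = 5) on wild-type ones, so the array signal was not lower there (change 0.65 ± 0.78 SE, limma adjusted p = 1). Under smoke it averaged 5.82 ± 2.21 in knock-down septa, against 8.50 ± 1.29 in wild-type septa (SD, n = 5 each; limma adjusted p = 0.0498 with all arrays and 0.999 without the low-correlation ones). On the overexpression arrays Fgf10 was not higher than in the smoke controls, at -0.80 ± 0.74 in septa and -1.84 ± 0.92 in vessel (SE; limma adjusted p = 1 for both), and in room air vessel the knock-down differed from wild type by 0.26 ± 0.98 (SE; limma adjusted p = 0.92). Wild-type smoke septa replicate 4 is a knock-down by 1 of its label fields and wild type by its title, which was followed here.

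The compartments differed in their defining genes. Smooth muscle markers were lower in septa for 6 of 6 genes tested, with a mean over the list of 8.24 to 11.46 on septa arrays, against 12.21 to 15.12 on vessel arrays. Adventitial fibroblast markers were lower in septa for 6 of 6 genes, pulmonary vein cardiomyocyte markers for 5 of 6 and airway markers for 4 of 6. Alveolar type 1 markers were higher in septa for 4 of 6 genes, with a list mean of 5.89 to 14.03 on septa arrays (12.71 to 14.03 without the low-correlation ones), against 10.80 to 13.00 on vessel arrays. Markers of capillary endothelium, of neutrophils and of T and NK cells were each higher in septa for 4 of 6 genes. In bulk tissue of this kind, fewer cells of a type and less RNA per cell cannot be told apart.

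Promoter windows of 4 members that passed the test between septa and vessel are shown first, as examples of windows with a motif match. They were picked after the values were seen. RefSeq's table for GRCm38.p6 holds 32851 windows of 300 bases, from 250 before to 50 after a gene's start, and 24 of the 38 genes matched with 27 windows. The capitals mark matches, on either strand, to 1 of 7 motifs searched: the CArG box of serum response factor, which drives contractile genes of smooth muscle, the GC box GGGCGG, the PU.1 core GAGGAA of the myeloid factor PU.1, the TATA box TATAAA, the AP-1 site TGANTCA, the RUNX site TGTGGT and the TEAD site GGAATG. Matches of different motifs were counted separately, whether or not they overlapped. The Itgb6 window lies at chr2:60673644-60673943 on the minus strand, the Itga5 window at chr15:103366742-103367041 on the minus strand, the Itgam window at chr7:128062390-128062689 on the plus strand and the Lamb2 window at chr9:108479612-108479911 on the plus strand.
Itgb6: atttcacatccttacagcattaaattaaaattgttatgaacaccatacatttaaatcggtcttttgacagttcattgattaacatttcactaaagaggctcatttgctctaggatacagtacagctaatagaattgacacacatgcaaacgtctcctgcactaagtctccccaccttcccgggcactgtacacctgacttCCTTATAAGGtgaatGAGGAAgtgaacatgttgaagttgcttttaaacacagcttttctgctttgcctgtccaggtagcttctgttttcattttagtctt
Itga5: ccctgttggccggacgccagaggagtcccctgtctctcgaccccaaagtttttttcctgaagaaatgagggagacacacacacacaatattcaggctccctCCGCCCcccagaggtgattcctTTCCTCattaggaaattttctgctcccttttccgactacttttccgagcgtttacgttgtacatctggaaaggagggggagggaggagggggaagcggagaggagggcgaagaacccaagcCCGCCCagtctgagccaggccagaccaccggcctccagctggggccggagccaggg
Itgam: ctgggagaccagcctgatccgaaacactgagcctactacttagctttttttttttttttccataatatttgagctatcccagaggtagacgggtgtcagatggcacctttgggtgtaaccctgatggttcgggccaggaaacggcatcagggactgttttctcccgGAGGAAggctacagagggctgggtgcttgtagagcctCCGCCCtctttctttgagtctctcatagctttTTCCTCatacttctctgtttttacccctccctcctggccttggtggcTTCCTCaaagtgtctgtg
Lamb2: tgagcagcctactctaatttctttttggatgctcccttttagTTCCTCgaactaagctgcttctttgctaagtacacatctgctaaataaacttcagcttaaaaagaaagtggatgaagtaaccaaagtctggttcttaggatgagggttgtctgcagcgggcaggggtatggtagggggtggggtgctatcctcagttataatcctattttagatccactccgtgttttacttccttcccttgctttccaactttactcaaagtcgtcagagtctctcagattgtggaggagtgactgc
The Itgb6 window holds a CArG box followed closely by a PU.1 core, the Itga5 window 2 GC boxes and 1 PU.1 core, the Itgam window 3 PU.1 cores and 1 GC box, and the Lamb2 window 1 PU.1 core. Itgb6 has a further window at another start with no match to any of the 7 motifs. Of the members that passed and are not shown, Itga11, Itgb7 and Lama5 also hold a PU.1 core, while Itga1 and Itgb8 hold none of the 7 motifs. A link between a motif and a compartment was not tested.

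Over the members as a whole, the PU.1 core was found in 15 of 27 windows (55.6%), against 28.3% of all windows. The GC box was found in 13 of 27 windows, against 35.7% of all, and the CArG box in the windows of Itgb6 and Lama2, against 1.63% of all. The AP-1 site stood in 3 windows (7.81% of all windows), the RUNX site in 3 (16.8% of all), the TEAD site in 4 (14.7% of all) and the TATA box in 0 (13.6% of all). The member windows had a median GC content of 59%, against 52.7% over all windows. Such matches describe letters in a window and do not show that a factor binds there.

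Septa and vessel differed at 16 of the 38 genes, with 5 higher and 11 lower in septa (limma over all 14 groups, Benjamini-Hochberg adjusted p under 0.05). Over all 24152 genes tested, 19.8% differed, 11% higher and 8.85% lower in septa. Without the low-correlation arrays 19 of 38 members differed, 8 higher and 11 lower, against 32.4% of all genes, 17.9% higher and 14.5% lower. The median difference was -0.11 over the members and -0.01 over all genes on the log2 scale. The genes lower in septa were the beta subunits Itgb4, Itgb8 and Itgb7, the alpha subunits Itga5, Itga7, Itga11, Itgae and Itgam, and the laminin chains Lama4, Lama5 and Lamb2. The genes higher in septa were Itga1, Itga6, Itgal, Itgb6 and the laminin chain Lama3.

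**Figure D1:**
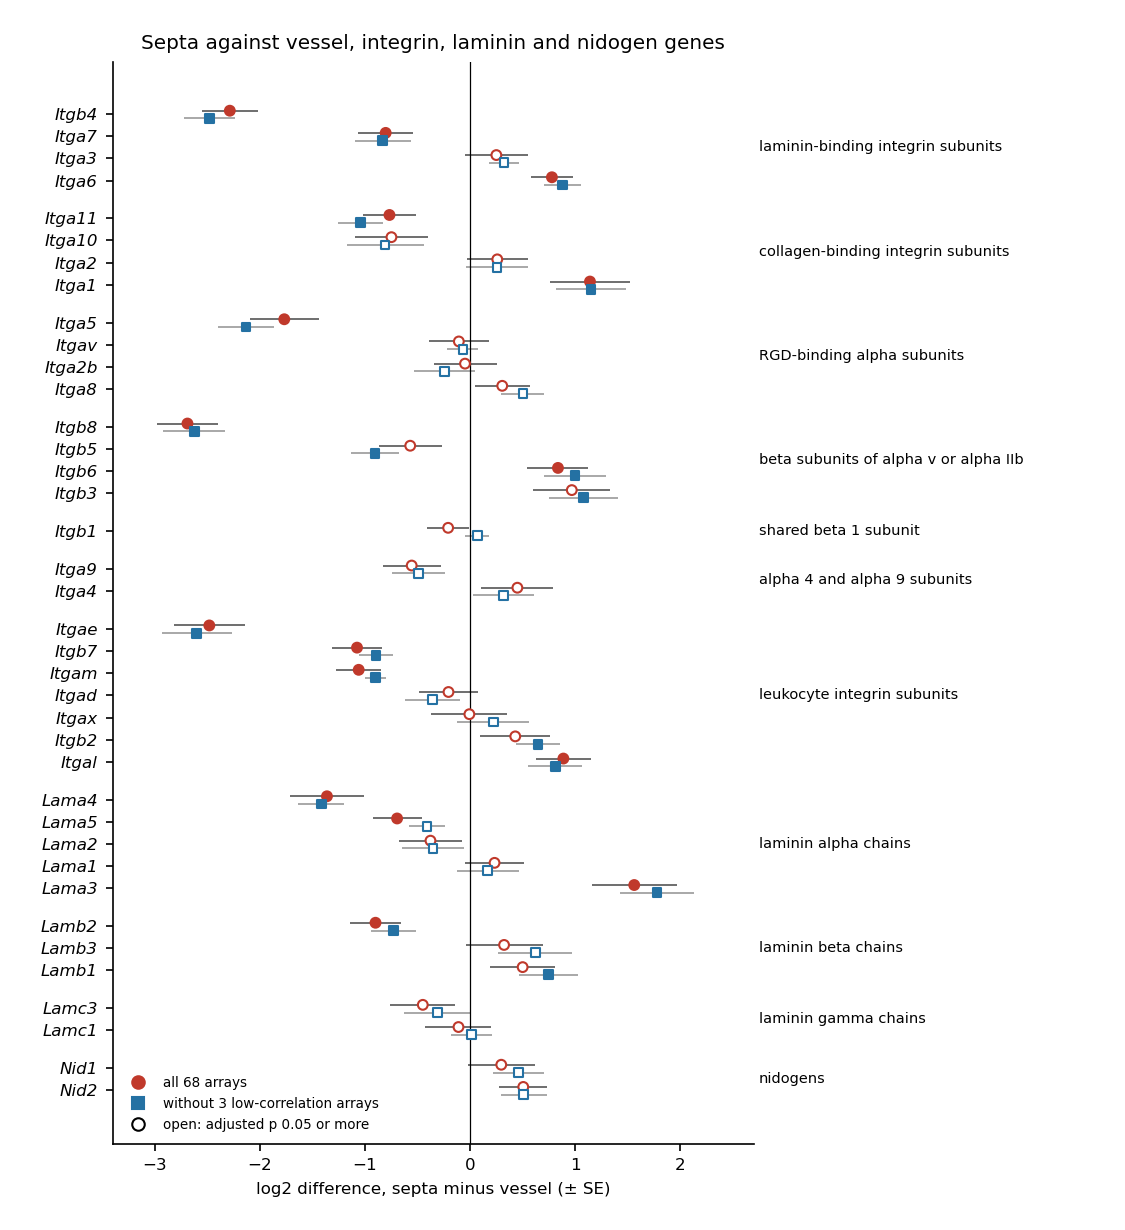
Difference between septa and vessel for the 38 genes on the log2 scale (septa minus vessel, bars are standard errors), grouped by role, with all 68 arrays (circles) and without the 3 low-correlation arrays (squares). Filled points have a limma adjusted p under 0.05; with all arrays Itgb8 lies furthest left at -2.69 and Lama3 furthest right at 1.56.

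Among the laminin-binding integrin subunits, Itgb4, which pairs with the alpha 6 subunit in hemidesmosomes of epithelium, read 5.92 to 11.14 with a median of 7.08 on septa arrays, against 7.08 to 12.15 with a median of 9.52 on vessel arrays. The ranges overlapped, but the highest septa reading was on a low-correlation array, and without those 3 arrays septa read 5.92 to 8.55. Itgb4 was 4.87-fold lower in septa (log2 difference -2.28 ± 0.27 SE, limma adjusted p = 1.1e-09), in the same direction in 7 of 7 conditions. Its 2 dimmer probes were lower by less, at -0.58 and -0.46, but each lay above the 40th percentile on at most 26 of 68 arrays. Its partner Itga6 ran the other way. It read 9.38 to 13.96 with a median of 12.56 in septa, against 9.92 to 12.87 with a median of 11.67 in vessel, a difference of 0.78 ± 0.20 (SE; limma adjusted p = 0.0029), with 5 of 5 probes higher in septa. The difference of Itga6 was 1.60 in knock-down room air and -0.0028 in the 8-month smoke controls.

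Itga7, the laminin receptor of muscle, read 4.14 to 9.19 with a median of 5.63 in septa, against 4.12 to 9.22 with a median of 6.90 in vessel. The spans of its readings were nearly the same, and the difference of -0.80 ± 0.26 (SE; limma adjusted p = 0.021) lay in the middle of the distributions, with 5 of 7 conditions lower in septa. Itga7 lay above the 40th percentile on 22 of 34 septa arrays and 28 of 34 vessel arrays, so the difference has no exact size. Itga3, which binds laminins of the epithelial basement membrane, had a median of 11.41 in septa and 11.05 in vessel. Its difference of 0.25 ± 0.30 (SE) did not pass the test (limma adjusted p = 0.63), nor did it without the low-correlation arrays (0.32 ± 0.14, limma adjusted p = 0.07).

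The collagen-binding alpha subunits split. Itga1, which binds type IV collagen, read 4.60 to 13.35 with a median of 10.17 in septa, against 3.92 to 11.76 with a median of 9.65 in vessel. It was 2.21-fold higher in septa (log2 difference 1.14 ± 0.38 SE, limma adjusted p = 0.026), by 3.07 in knock-down smoke but by -0.36 in the 8-month smoke controls. Itga11, the collagen receptor of fibroblasts, had a median of 5.91 in septa and 6.79 in vessel and was 1.70-fold lower in septa (-0.77 ± 0.25 SE, limma adjusted p = 0.023). Itga2 and Itga10, the other collagen receptors, differed by 0.26 ± 0.29 and -0.75 ± 0.35 (SE) and did not pass (limma adjusted p = 0.6 and 0.13). Itga2 lay above the 40th percentile on 21 of 34 septa and 14 of 34 vessel arrays, and Itga10 on 16 and 19. With so little signal, equal levels are not shown.

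Of the alpha subunits that bind the RGD motif of fibronectin and related ligands, Itga5, the main fibronectin receptor, differed most between the compartments. It read 4.48 to 12.70 with a median of 5.52 in septa, against 4.57 to 10.59 with a median of 7.54 in vessel, and lay above the 40th percentile on 20 of 34 septa arrays and 31 of 34 vessel arrays. It was lower in septa (-1.77 ± 0.33 SE, limma adjusted p = 4.7e-05), with no exact size since many septa arrays lay under that percentile. The single condition that went against this, knock-down smoke at 0.91, turned to -1.64 without the low-correlation arrays. Itgav, Itga8 and Itga2b differed by -0.11 ± 0.28, 0.31 ± 0.26 and -0.05 ± 0.30 (SE) and did not pass (limma adjusted p of 0.85, 0.46 and 0.94). Itga2b lay above the 40th percentile on only 22 of 34 septa arrays and 17 of 34 vessel arrays.

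The beta subunits that pair with the alpha v chain, several of which activate latent TGF-beta, moved in opposite directions. Itgb8 read 3.62 to 6.42 with a median of 4.21 in septa, against 4.03 to 9.42 with a median of 7.52 in vessel. It lay above the 40th percentile on 7 of 34 septa arrays and 28 of 34 vessel arrays, so its difference of -2.69 ± 0.29 (SE; limma adjusted p = 8.0e-11) has no exact size, and 7 of 7 conditions and 4 of 4 probes were lower in septa. The dimmer Itgb8 probes each lay above that percentile on at most 11 of 68 arrays. Itgb6, the epithelial subunit of this group, read 4.10 to 9.82 with a median of 7.67 in septa, against 3.69 to 8.68 with a median of 6.78 in vessel. Itgb6 lay above the 40th percentile on 31 of 34 septa arrays and 27 of 34 vessel arrays, so its difference has no exact size. It was higher in septa (0.84 ± 0.29 SE, limma adjusted p = 0.031), with 6 of 7 conditions in that direction. The exception was knock-down smoke at -1.56, and the adjusted p was 0.052 when the first 8-month smoke control vessel array was left out.

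Itgb3 and Itgb5 passed only without the low-correlation arrays. Itgb3, which pairs with alpha v or with the platelet subunit alpha IIb, differed by 0.97 ± 0.37 (SE; limma adjusted p = 0.051) with all arrays and by 1.08 ± 0.33 (limma adjusted p = 0.0081) without them. Itgb5, a vitronectin receptor subunit, differed by -0.57 ± 0.30 (SE; limma adjusted p = 0.19) with all arrays and by -0.90 ± 0.23 (limma adjusted p = 0.0016) without them. Itgb1, the partner shared by most alpha subunits, read 8.51 to 14.52 with a median of 13.94 in septa, against 12.78 to 14.84 with a median of 13.98 in vessel. Its difference of -0.21 ± 0.20 (SE) did not pass (limma adjusted p = 0.54), and its 3 probes disagreed, at -0.21, 0.31 and 1.18. Itga4 and Itga9, which share ligands such as Vcam1, did not pass either (0.45 ± 0.34 and -0.55 ± 0.28 SE, limma adjusted p = 0.39 and 0.16).

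**Figure D2:**
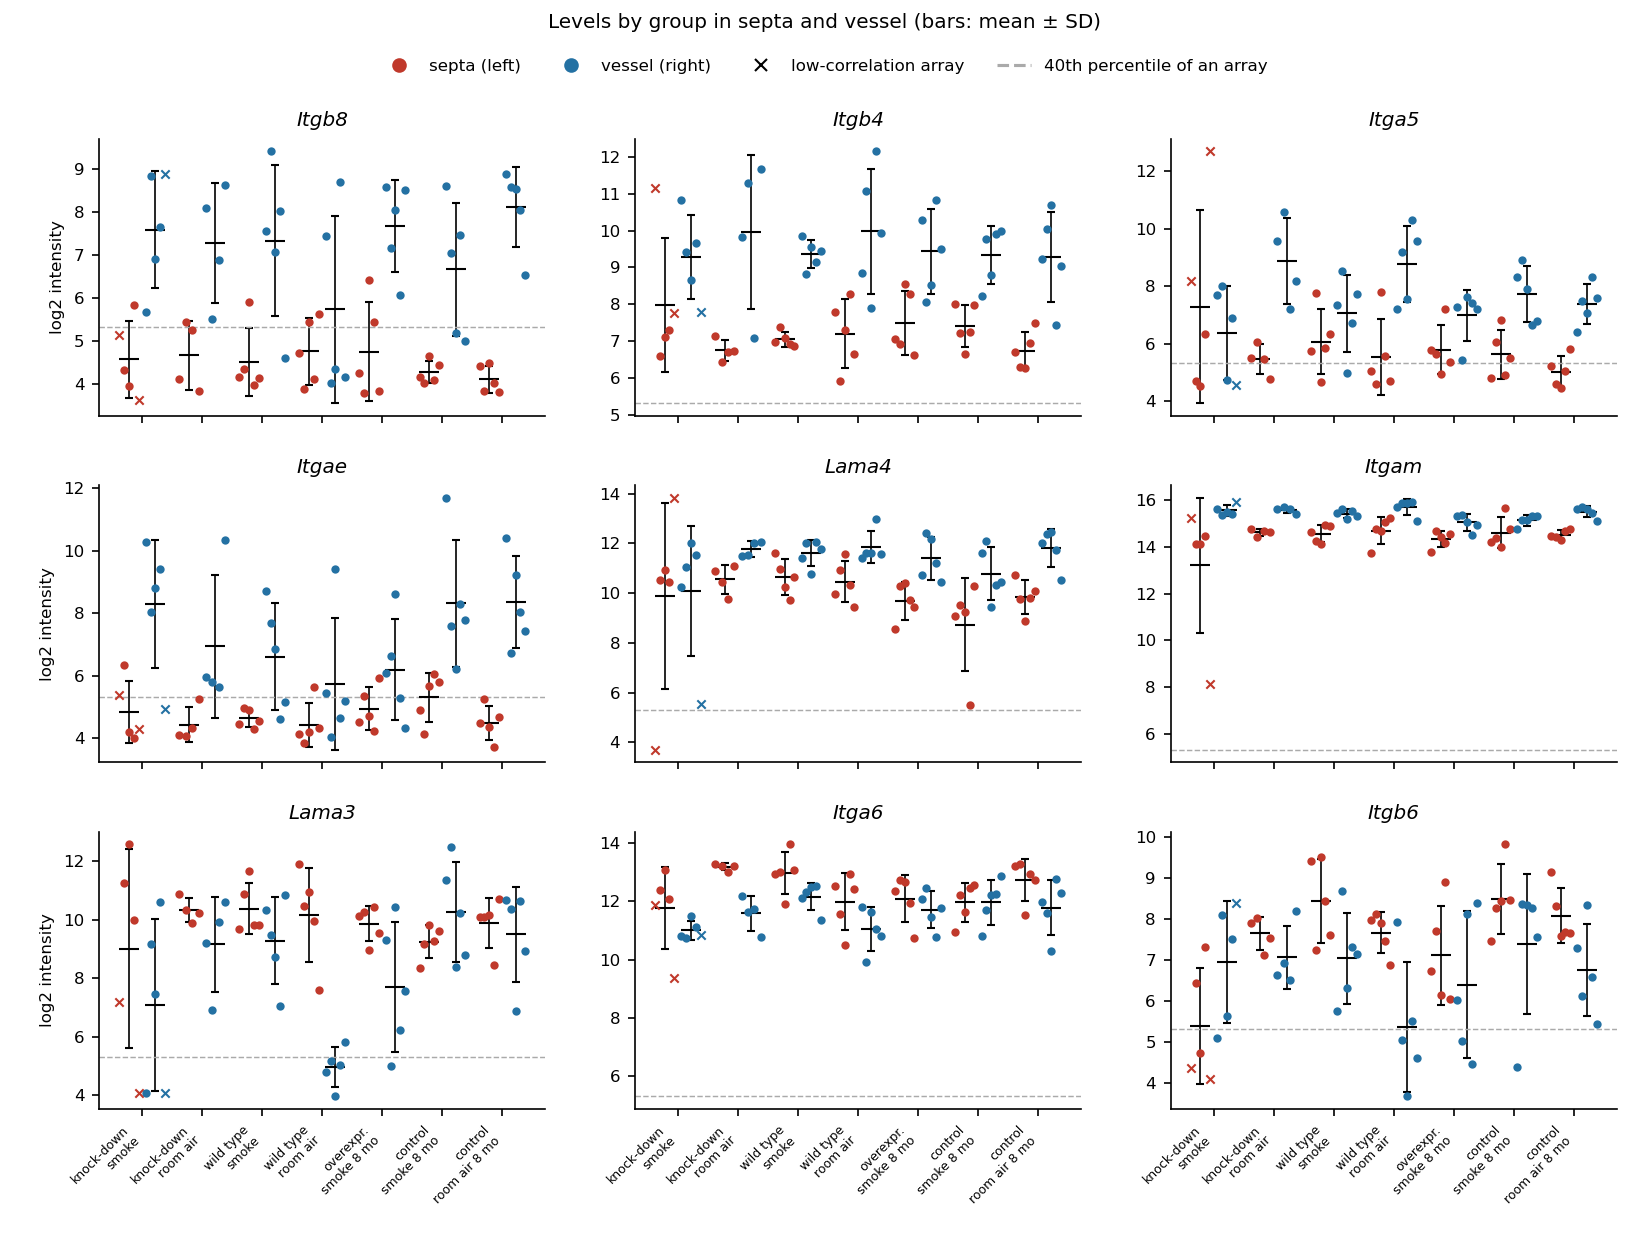
Log2 intensity of 9 of the genes on every array, by condition along the x axis, with septa left (red) and vessel right (blue) in each pair, bars at mean ± SD, crosses for low-correlation arrays and a dashed line at the 40th percentile of an array. Itgb8 and Itgae lie mostly under that line in septa, and Lama3 lies near 4.96 in wild-type room air vessel.

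Of 7 leukocyte integrin subunits, 1 was higher and 3 were lower in septa, beside 11% and 8.85% of all genes. Itgae, the alpha E subunit of intraepithelial T cells that binds E-cadherin, read 3.71 to 6.35 with a median of 4.50 in septa, against 4.05 to 11.69 with a median of 7.15 in vessel. It lay above the 40th percentile on 8 of 34 septa arrays and 26 of 34 vessel arrays, so its difference of -2.48 ± 0.34 (SE; limma adjusted p = 6.0e-08) has no exact size. Its partner Itgb7 was also lower in septa (-1.07 ± 0.24 SE, limma adjusted p = 0.00051), with 7 of 7 conditions in that direction. Of the T and NK cell markers, 4 of 6 were higher in septa (Gzma, Klrb1c, Nkg7 and Cd8a), with a list mean of 6.32 to 10.54 there and 5.69 to 9.19 in vessel. Cd3e and Cd3g did not pass, at -0.48 ± 0.28 and 0.28 ± 0.34 (SE; limma adjusted p = 0.25 and 0.63). The part of these cells in the Itgae and Itgb7 readings was not tested.

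Itgam, the alpha M chain of myeloid cells, read 8.12 to 15.68 with a median of 14.52 in septa, against 14.51 to 15.93 with a median of 15.43 in vessel. Its brightest probe was lower in septa (-1.06 ± 0.22 SE, limma adjusted p = 0.00018), in 7 of 7 conditions, but sat near the highest value deposited, 15.98, and so has no exact size. A dimmer Itgam probe differed by 0.28, and over the mean of all probes the difference was -0.39 (limma adjusted p = 0.26). Itgal, the alpha L chain of lymphocytes, was 1.85-fold higher in septa (0.89 ± 0.26 SE, limma adjusted p = 0.011), against 0.27 over the mean of its probes (limma adjusted p = 0.18). Their shared partner Itgb2 differed by 0.43 ± 0.33 with all arrays (limma adjusted p = 0.41) and by 0.65 ± 0.21 without the low-correlation ones (limma adjusted p = 0.012). Itgax and Itgad, chains of macrophages and dendritic cells, differed by -0.01 ± 0.36 and -0.20 ± 0.28 (SE; limma adjusted p = 0.99 and 0.69), and Itgad lay above the 40th percentile on 4 of 34 arrays in each compartment.

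The laminin alpha chains, which give each trimer its identity, also split. Lama3, the alpha chain of the laminin that anchors epithelium, read 4.07 to 12.59 with a median of 10.04 in septa, against 3.97 to 12.51 with a median of 8.88 in vessel. It was higher in septa, by 1.56 ± 0.40 on the log2 scale (SE; limma adjusted p = 0.0031) with all arrays and by 1.78 ± 0.35 without the low-correlation arrays. Lama3 lay above the 40th percentile on 33 of 34 septa arrays and 27 of 34 vessel arrays, so the difference has no exact size. The size varied by condition: 5.21 in wild-type room air, 2.16 in overexpression after smoke, 1.94 in knock-down smoke, 1.17 in knock-down room air, 1.09 in wild-type smoke, 0.39 in the 8-month room air controls and -1.02 in the 8-month smoke controls. Lama4, the chain of endothelial and muscle basement membranes, read 3.71 to 13.84 with a median of 10.27 in septa, against 5.55 to 12.99 with a median of 11.60 in vessel. It was lower in septa (-1.36 ± 0.35 SE, limma adjusted p = 0.0031) in 7 of 7 conditions, and 1 of its 4 probes went the other way, at 0.13.

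Lama5, the alpha chain of most mature basement membranes, had a median of 11.39 in septa and 11.73 in vessel. Its difference was -0.69 ± 0.23 (SE; limma adjusted p = 0.027) with all arrays and -0.41 ± 0.17 (limma adjusted p = 0.053) without the low-correlation ones. Lama2, the chain of muscle laminin, and Lama1, an embryonic chain, differed by -0.38 ± 0.30 and 0.23 ± 0.28 (SE) and did not pass (limma adjusted p = 0.43 and 0.64). Lama1 lay above the 40th percentile on only 14 of 34 septa arrays and 7 of 34 vessel arrays.

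Lamb2, the beta chain of vascular and neuromuscular basement membranes, read 4.63 to 9.43 with a median of 8.45 in septa, against 6.63 to 11.67 with a median of 9.07 in vessel. It was 1.86-fold lower in septa (log2 difference -0.90 ± 0.24 SE, limma adjusted p = 0.0051), with 5 of 7 conditions in that direction. The smoke groups of wild type (0.38) and of the 8-month controls (0.62) went against it. Lamb1, its widely expressed counterpart, passed only without the low-correlation arrays, higher in septa (0.75 ± 0.28 SE, limma adjusted p = 0.034), against 0.50 ± 0.31 with all arrays (limma adjusted p = 0.27). Lamb3, the beta chain that joins Lama3, differed by 0.32 ± 0.37 (SE; limma adjusted p = 0.6). The gamma chains Lamc1 and Lamc3 differed by -0.11 ± 0.31 and -0.45 ± 0.31. The nidogens Nid1 and Nid2 differed by 0.30 ± 0.32 and 0.51 ± 0.23 (all SE). None of these 4 passed (limma adjusted p of 0.86, 0.34, 0.58 and 0.11). Lamc3 lay above the 40th percentile on 18 of 34 septa and 19 of 34 vessel arrays, and Nid2 on 27 and 19.

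Of 19 basement membrane partners, 5 were higher and 6 lower in septa, beside 11% and 8.85% of all genes. Without the low-correlation arrays 6 were higher and 8 lower, beside 17.9% and 14.5% of all genes. The 4 with the largest differences were all lower in septa: the fibulins Fbln2 (-3.51 ± 0.34) and Fbln1 (-2.69 ± 0.30), which bind laminin and nidogen, the collagen IV chain Col4a6 (-2.12 ± 0.41), found in smooth muscle basement membranes, and Col18a1 (-1.72 ± 0.21, all SE), the source of endostatin. The 5 higher in septa, named after their values were seen, were the collagen IV chains Col4a3 (0.73 ± 0.26) and Col4a4 (0.79 ± 0.25), which join in the alveolar basement membrane, and the matrix proteins Egflam (1.34 ± 0.28), Hmcn1 (1.14 ± 0.32) and Pxdn (0.84 ± 0.25, all SE).

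Of 20 ligands of integrins other than laminins, 5 were higher and 4 lower in septa with all arrays (19.8% of all genes differed), and 10 were higher and 4 lower without the low-correlation arrays (32.4% of all genes). Vitronectin (Vtn) and osteopontin (Spp1) were higher in septa by 2.26 ± 0.41 and 1.97 ± 0.40 (SE). Vcam1, the ligand of the alpha 4 integrins, and Tgfb3, whose latent form binds alpha v integrins, were lower in septa at -1.497 ± 0.21 and -1.76 ± 0.29 on the log2 scale (SE). Of 24 genes of the adhesion machinery, 2 were higher in septa, Itgb1bp1 and Fermt2, and 3 lower, the actin cross-linkers Flna and Actn1 and, named after its value was seen, the focal adhesion protein Zyx. That is near the share of all genes that differed, 19.8%. The counts were 6 higher and 4 lower without the low-correlation arrays, beside 32.4% of all genes. Of 16 other laminin receptors and netrins, Dag1, the core of dystroglycan, was higher by 0.60 ± 0.22 and the muscle sarcoglycans Sgcd and Sgca were lower at -1.53 ± 0.30 and -1.42 ± 0.24 on the log2 scale (SE). This too is near the 19.8% of all genes. Smooth muscle, cardiomyocyte and fibroblast markers and most airway markers moved with the genes lower in septa, as given above, and their part in these differences was not tested.

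Within a compartment, the Fgf10 knock-down under smoke in septa gave the most member calls. Against wild type, 4 of 38 members passed (10.5%), against 2.89% of all 21752 genes. They were Itgb6, Itgb3, Itga9 and Nid1, each lower in the knock-down. Without the low-correlation arrays 0 members passed, and 0% of all genes did; at a limma unadjusted p under 0.05 there were 16 members (28.6% of all genes) with all arrays and 3 (4.76% of all genes) without those arrays. With all arrays the median change over all genes was -0.15 and over the members -0.99. Without the low-correlation arrays these medians were -0.04 and -0.15.

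Itgb6 read 4.37, 6.44, 4.73, 7.32 and 4.10 in knock-down smoke septa, against 9.41, 7.25, 9.52, 8.44 and 7.62 in wild-type smoke septa. The groups overlapped at a single knock-down array, and the change was -3.06 ± 0.62 (SE; limma adjusted p = 0.0493). The knock-down mean of 5.39 lies close to the 40th percentile. Without the low-correlation arrays the change of Itgb6 was -2.28 (limma unadjusted p = 0.001, adjusted p = 0.93), and the other 3 knock-down arrays all read below the wild-type mean of 8.45.

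Itgb3 read 5.72, 11.77, 6.97, 10.96 and 5.56 in knock-down smoke septa, against 12.95, 11.77, 12.20, 11.14 and 11.06 in wild-type smoke septa. The 2 lowest readings were on the low-correlation arrays, and the next lowest was on replicate 3. The change was -3.63 ± 0.81 (SE; limma adjusted p = 0.0493) with all arrays and -1.93 (limma adjusted p = 1) without them.

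Itga9, a receptor for tenascin and Vcam1, read 4.41, 8.05, 4.87, 8.04 and 3.86 in knock-down smoke septa, against 9.05, 8.66, 7.73, 9.44 and 8.21 in wild-type smoke septa. Its change was -2.77 ± 0.71 (SE; limma adjusted p = 0.0493) with all arrays and -1.63 (limma adjusted p = 0.999) without the low-correlation ones, and 1 of its 2 probes had that direction. Nid1 read 3.85, 10.09, 8.62, 9.84 and 4.91 in knock-down smoke septa, against 10.72, 10.30, 10.88, 10.67 and 9.16 in wild-type smoke septa. Its change was -2.88 ± 0.75 (SE; limma adjusted p = 0.0498) with all arrays and -0.83 (limma adjusted p = 1) without the low-correlation arrays, which gave its 2 lowest readings.

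**Figure D3:**
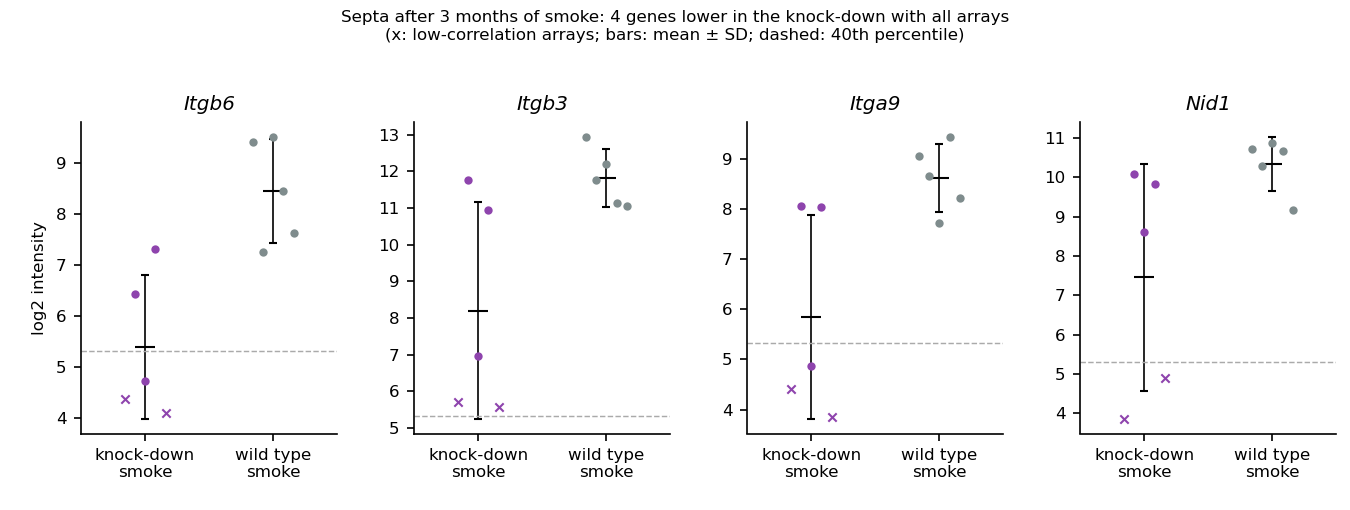
Log2 intensity of Itgb6, Itgb3, Itga9 and Nid1 on each septa array under smoke, knock-down left and wild type right, with bars at mean ± SD, crosses for the low-correlation arrays and a dashed line at the 40th percentile of an array. The crosses are among the lowest points of the knock-down for all 4 genes.

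Each of the 4 genes lost its call when knock-down replicate 1 or 5, or any 1 of the 5 wild-type arrays, was left out, with limma adjusted p of 0.00055 to 0.22 over the 10 fits. When knock-down replicate 2, 3 or 4 was left out instead, 13 to 14 members passed. The share of all genes called in those fits is not given here, so these counts are not read as particular to the members. With all arrays 28.6% of all genes already had a limma unadjusted p under 0.05.

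The low-correlation septa arrays were also low in markers of alveolar cells. The list mean of alveolar type 1 markers was 5.89 to 13.91 over the knock-down smoke septa arrays, against 13.82 to 14.03 over the wild-type smoke ones, and 13.72 to 13.91 in the knock-down without the low-correlation arrays. Capillary markers ran from 6.31 to 12.43 in knock-down smoke septa (11.88 to 12.43 without those arrays), against 12.11 to 12.72 in wild-type smoke septa, and 1 of 6, Cdh5, was called lower. Partner genes called in the same direction with all arrays were the matrix genes Fn1 (-3.28 ± 0.89) and Postn (-3.53 ± 1.02), the basement membrane genes Col4a4 (-2.62 ± 0.72) and Pxdn (-2.19 ± 0.63), the adhesion genes Flna (-3.75 ± 1.06) and Bcar1 (-3.03 ± 0.72), and Sdc4 (-3.53 ± 0.90, all SE). Xist, which female cells transcribe from their silenced X chromosome, read over 9.5 on 3 of 5 knock-down smoke arrays and on 1 of 5 wild-type smoke arrays. The knock-down smoke septa arrays not over 9.5 were the low-correlation ones, replicates 1 and 5, at 5.78 and 6.42. Within this group, Xist and low correlation therefore cannot be told apart. With Xist as a covariate 15 members passed, a count given without the share of all genes called in that fit. The part of marker levels and of Xist in these changes was not tested.

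Smoke in the knock-down, against room air in the knock-down, gave 0 member calls in septa, with 0% of all genes called. At a limma unadjusted p under 0.05 there were 15 members, beside 28.15% of all genes, and 5 members, beside 5.62% of all genes, without the low-correlation arrays. The closest were Itgb3 (-3.62 ± 0.85), Lama5 (-2.90 ± 0.76) and Itga9 (-2.70 ± 0.75, all SE), with limma adjusted p of 0.064 to 0.065. Between 11 and 14 members passed when knock-down smoke replicate 2, 3 or 4 was left out, and 11 with Xist as a covariate. These counts too are given without the share of all genes called in those fits. Lama5 averaged 8.89 ± 2.58 in knock-down smoke septa (SD, n = 5), against 11.79 ± 0.42 in knock-down room air septa (SD, n = 4), and without the low-correlation arrays its change was -1.13 (limma adjusted p = 0.89). Without those arrays 0 members passed, against 0.00919% of all genes. The interaction of smoke and knock-down in septa also gave 0 member calls (0% of all genes with all arrays and 0% without the low-correlation ones), with 11 members at a limma unadjusted p under 0.05 (18.65% of all genes). The smallest p among these belonged to Itga9, Itgb6 and Nid1, at -3.57 ± 1.03, -3.04 ± 0.91 and -3.51 ± 1.09 (SE; limma adjusted p = 0.23 each). Leaving out the low-correlation arrays, the 3 values were -2.43, -2.27 and -1.46 (limma adjusted p = 0.699, 0.699 and 0.703).

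Smoke in wild-type septa gave 0 member calls at 3 months, against 0.0046% of all genes, and 1 member had a limma unadjusted p under 0.05 (3.52% of all genes). That gene was Itgax, the alpha X chain of alveolar macrophages and dendritic cells. Itgax read 8.96, 9.90, 9.93, 10.60 and 10.76 in wild-type smoke septa, against 4.13, 7.82, 9.68, 7.65 and 7.33 in wild-type room air septa. Of the 5 smoke arrays, 4 lay above every room air array, for a change of 2.71 ± 0.95 (SE; limma unadjusted p = 0.0074, adjusted p = 1). Without the low-correlation arrays, which belong to neither group but enter the shared spread, 0 members passed against 0.0506% of all genes, and Itgax had an adjusted p of 0.22. Nid2 and Itga6 came next, at 1.07 ± 0.59 and 0.98 ± 0.59 (SE; limma adjusted p = 1 for both).

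After 8 months of smoke in septa 0 members passed, against 0.023% of all genes, with 4 at a limma unadjusted p under 0.05 (7.255% of all genes). Itgax read 11.38, 10.34, 11.89, 10.62 and 10.79 in smoke control septa, against 6.54, 7.57, 8.87, 9.46 and 9.01 in room air control septa. These groups did not overlap, and the change of 2.71 ± 0.95 (SE) was of the same size as at 3 months, with a limma adjusted p of 0.52 with all arrays and 0.091 without the low-correlation ones. The macrophage list mean was 11.05 to 13.15 in smoke control septa, against 8.34 to 10.29 in room air control septa, and 10.12 to 12.06 in wild-type smoke septa, against 8.15 to 10.40 in wild-type room air septa. Its part in the Itgax readings was not tested.

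Itgal went the other way after 8 months. It read 10.48, 10.80, 10.45, 7.64 and 10.58 in smoke control septa, against 13.00, 12.87, 12.22, 11.29 and 11.57 in room air control septa. The groups did not overlap, although 1 smoke array was much lower than the rest. The change was -2.20 ± 0.56 (SE; limma adjusted p = 0.19) with all arrays, and without the low-correlation arrays Itgal was the 1 member that passed (limma adjusted p = 0.0367), against 0.644% of all genes. T and NK cell markers had a list mean of 8.37 to 9.95 in smoke control septa, against 9.05 to 10.54 in room air control septa, and 1 of 6, Cd8a, was called lower without the low-correlation arrays. Itga7 came next by p, at 1.61 ± 0.60 (SE; limma adjusted p = 0.56).

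**Figure D4:**
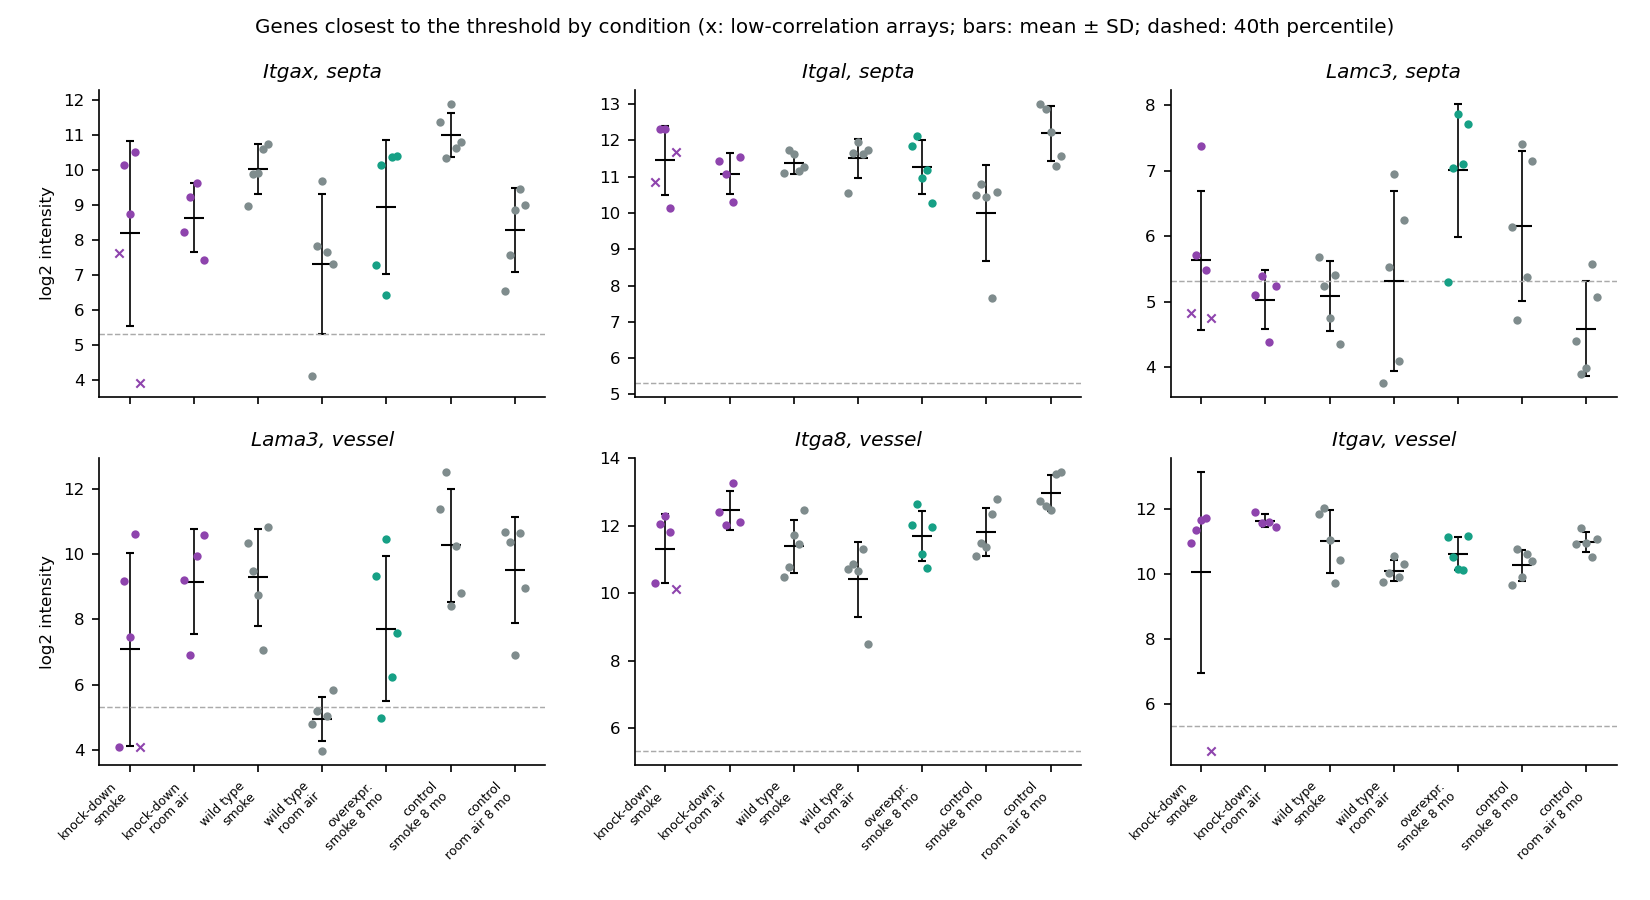
Log2 intensity of 6 genes by condition, 3 in septa (Itgax, Itgal, Lamc3) and 3 in vessel (Lama3, Itga8, Itgav), 1 point per array, with bars at mean ± SD, crosses for low-correlation arrays and a dashed line at the 40th percentile of an array. Itgax is higher under smoke in wild type and in the 8-month controls, and Lama3 in wild-type room air vessel averages 4.96.

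In vessel, smoke in wild type gave 0 member calls, against 0.142% of all 22518 genes (0 members against 0.6% without the low-correlation array), with 6 members at a limma unadjusted p under 0.05 (12.2% of all genes). Lama3 read 10.35, 9.47, 8.74, 7.05 and 10.84 in wild-type smoke vessel, against 4.79, 5.19, 3.97, 5.04 and 5.83 in wild-type room air vessel. The groups did not overlap, and 1 of the 5 room air arrays lay above the 40th percentile, so the change of 4.33 ± 1.13 (SE) has no exact size. Its limma adjusted p was 0.11 with all arrays and 0.054 without the low-correlation one. Alveolar type 1 markers, of a cell type that borders the epithelial basement membrane, had a list mean of 11.51 to 12.65 in wild-type smoke vessel, against 10.80 to 12.25 in wild-type room air vessel, and airway markers 11.50 to 13.17 in wild-type smoke vessel, against 10.92 to 12.94 in wild-type room air vessel. Their part in the Lama3 readings was not tested.

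Itga9 read 8.94, 8.69, 7.30, 7.66 and 5.99 in wild-type smoke vessel, against 8.74, 10.18, 9.52, 12.17 and 10.23 in wild-type room air vessel. The lowest room air array lay just inside the smoke range, and the change was -2.45 ± 0.73 (SE; limma adjusted p = 0.16). Lamb2 averaged 8.14 ± 0.45 in wild-type smoke vessel, against 10.02 ± 1.04 in wild-type room air vessel (SD, n = 5 each), with no overlap and a change of -1.87 ± 0.65 (SE; limma adjusted p = 0.23).

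After 8 months of smoke in vessel 0 members passed, with 0% of all genes called (0 members and 0.00444% without the low-correlation array) and 2 members at a limma unadjusted p under 0.05 (3.54% of all genes). Itga11, Itga8 and Lamb2 had the smallest p, at 1.49 ± 0.66, -1.16 ± 0.53 and -1.33 ± 0.65 (SE; limma adjusted p = 1 each). Lama3 averaged 10.27 ± 1.72 in smoke control vessel, against 9.51 ± 1.62 in room air control vessel (SD, n = 5 each), unlike the wild-type pair at 3 months; the difference between these effects was not tested.

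Knock-down against wild type in room air gave 0 member calls in septa. Of all genes, 0% were called with all arrays and 0% without the low-correlation ones. At a limma unadjusted p under 0.05 there were 0 members (2.29% of all genes), or 3 without the low-correlation arrays (6.69% of all genes). The closest were Itga6 (1.19 ± 0.62), Itgax (1.31 ± 1.01) and Itgav (0.87 ± 0.72, all SE; limma adjusted p = 1). Itga6 averaged 13.18 ± 0.12 in knock-down room air septa (SD, n = 4), against 11.99 ± 0.98 in wild-type room air septa (SD, n = 5), and the groups did not overlap.

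In vessel the same comparison called 0 members, against 0.32% of all genes, with 5 members at a limma unadjusted p under 0.05 (14.8% of all genes). Itga8, an RGD receptor of mesenchyme and smooth muscle, read 12.42, 12.01, 13.28 and 12.11 in knock-down room air vessel, against 10.72, 10.86, 10.67, 11.31 and 8.49 in wild-type room air vessel. All 4 knock-down arrays lay above all 5 wild-type arrays, for a change of 2.04 ± 0.56 (SE; limma adjusted p = 0.11 with all arrays and 0.058 without the low-correlation one). Lama3 read 9.20, 6.90, 9.94 and 10.60 in knock-down room air vessel, against the wild-type readings given above, again with no overlap (4.20 ± 1.20 SE, limma adjusted p = 0.12). Both comparisons of Lama3 share the 5 wild-type room air vessel arrays. Itga4 came next, at 2.83 ± 1.02 (SE; limma adjusted p = 0.2).

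Without the low-correlation array 1 member passed in this comparison, Itgav, against 0.933% of all genes. It read 11.93, 11.58, 11.60 and 11.46 in knock-down room air vessel, against 9.77, 10.03, 10.56, 9.90 and 10.30 in wild-type room air vessel. The groups did not overlap, and the change was 1.53 ± 0.84 (SE; limma adjusted p = 0.39) with all arrays and 1.53 ± 0.39 (limma adjusted p = 0.0499) without the low-correlation array, which belongs to neither group. Alveolar type 1 markers had a list mean of 12.09 to 12.77 in knock-down room air vessel, against 10.80 to 12.25 in wild-type room air vessel, and smooth muscle markers 14.35 to 14.49 in the knock-down, against 14.33 to 14.58 in wild type; the part of either was not tested. That low-correlation array read 4.55 for Itgav and widens the shared spread when it is kept.

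Under smoke in vessel, knock-down against wild type called 0 members, against 5.37% of all genes, with 4 members at a limma unadjusted p under 0.05 (20.6% of all genes). Itgb7, Itga6 and Itgb3 had the smallest p, at -1.35 ± 0.51, -1.16 ± 0.45 and -2.59 ± 1.06 (SE; limma adjusted p = 0.12, 0.13 and 0.15). Without the low-correlation array 1 member passed, Itgb5, against 6.84% of all genes. Itgb5 read 10.89, 10.01, 10.03, 10.59 and 4.76 in knock-down smoke vessel, against 9.47, 9.09, 7.94, 6.58 and 9.98 in wild-type smoke vessel. The reading of 4.76 was the low-correlation array. The other 4 lay above all wild-type arrays, and the change was 0.64 ± 0.77 (SE; limma adjusted p = 0.7) with it and 1.77 ± 0.55 (limma adjusted p = 0.0477) without it.

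Smoke in knock-down vessel, against room air, called 0 members, against 0.182% of all genes (0 and 0.0977% without the low-correlation array), with 6 members at a limma unadjusted p under 0.05 (9.67% of all genes). Itga5 averaged 6.39 ± 1.63 in knock-down smoke vessel (SD, n = 5), against 8.90 ± 1.49 in knock-down room air vessel (SD, n = 4), a change of -2.51 ± 0.80 (SE; limma adjusted p = 0.24). Itgb3 and Itga7 followed, at -3.11 ± 1.12 and -2.13 ± 0.80 (SE; limma adjusted p = 0.33 and 0.36). The interaction in vessel called 0 members, against 0.0222% of all genes (0 and 0.0711% without the low-correlation array), with 6 at a limma unadjusted p under 0.05 (15.8% of all genes). Lama3 was first, at -6.41 ± 1.64 (SE; limma adjusted p = 0.1), followed by Itga8 at -2.12 ± 0.77 and Itgb3 at -4.19 ± 1.54 (SE; limma adjusted p = 0.19 each). The median over all genes was -0.10 for knock-down under smoke in vessel, -0.12 for smoke in the knock-down and -0.22 for the interaction, and over the members -0.19, -0.67 and -0.64.

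Fgf10 overexpression after smoke, against the smoke controls, called 0 members in septa and 0 in vessel, with 0% of all genes called in septa and 0% in vessel (0% and 0.00444% without the low-correlation arrays, again with 0 members). In septa 4 members and in vessel 2 had a limma unadjusted p under 0.05 (2.29% and 2.56% of all genes). In septa Itgal (1.28 ± 0.56), Itgb6 (-1.38 ± 0.62) and Itgax (-2.07 ± 0.95, all SE) were closest (limma adjusted p = 1 each). Itgax read 7.30, 10.16, 6.44, 10.38 and 10.40 on overexpression arrays, against the smoke control readings given above. The overexpression arrays thus fell into 2 low and 3 high readings, and 2 of the high ones lay within the range of the controls. In vessel Nid2 (-1.42 ± 0.61), Lama3 (-2.55 ± 1.13) and Lama1 (1.35 ± 0.67, all SE) were closest (limma adjusted p = 1 each).

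Against the room air controls, overexpression after smoke called 0 members in septa, against 0.0046% of all genes, and 0 in vessel, against 0.04%. Without the low-correlation arrays the counts were 0 members and 0.0965% of all genes in septa, and 0 members and 0.0488% in vessel. A limma unadjusted p under 0.05 was reached by 1 member in each compartment (2.38% of all genes in septa and 4.40% in vessel). In septa this was Lamc3, a gamma chain of laminins in few tissues, which read 5.31, 7.04, 7.86, 7.10 and 7.71 on overexpression arrays, against 4.40, 3.90, 3.99, 5.58 and 5.08 on room air control arrays. The lowest overexpression array overlapped with the highest control, 4 of 5 controls lay under the 40th percentile, and the change was 2.41 ± 0.63 (SE; limma adjusted p = 0.38). Nid2 and Itga2 followed in septa, at -1.16 ± 0.59 and -1.23 ± 0.66, and Itga8, Itga10 and Itgae were closest in vessel, at -1.28 ± 0.53, -2.04 ± 1.07 and -2.17 ± 1.14 (SE; limma adjusted p = 1 for each). The comparisons with smoke and with room air controls share the 5 overexpression arrays.

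**Figure D5:**
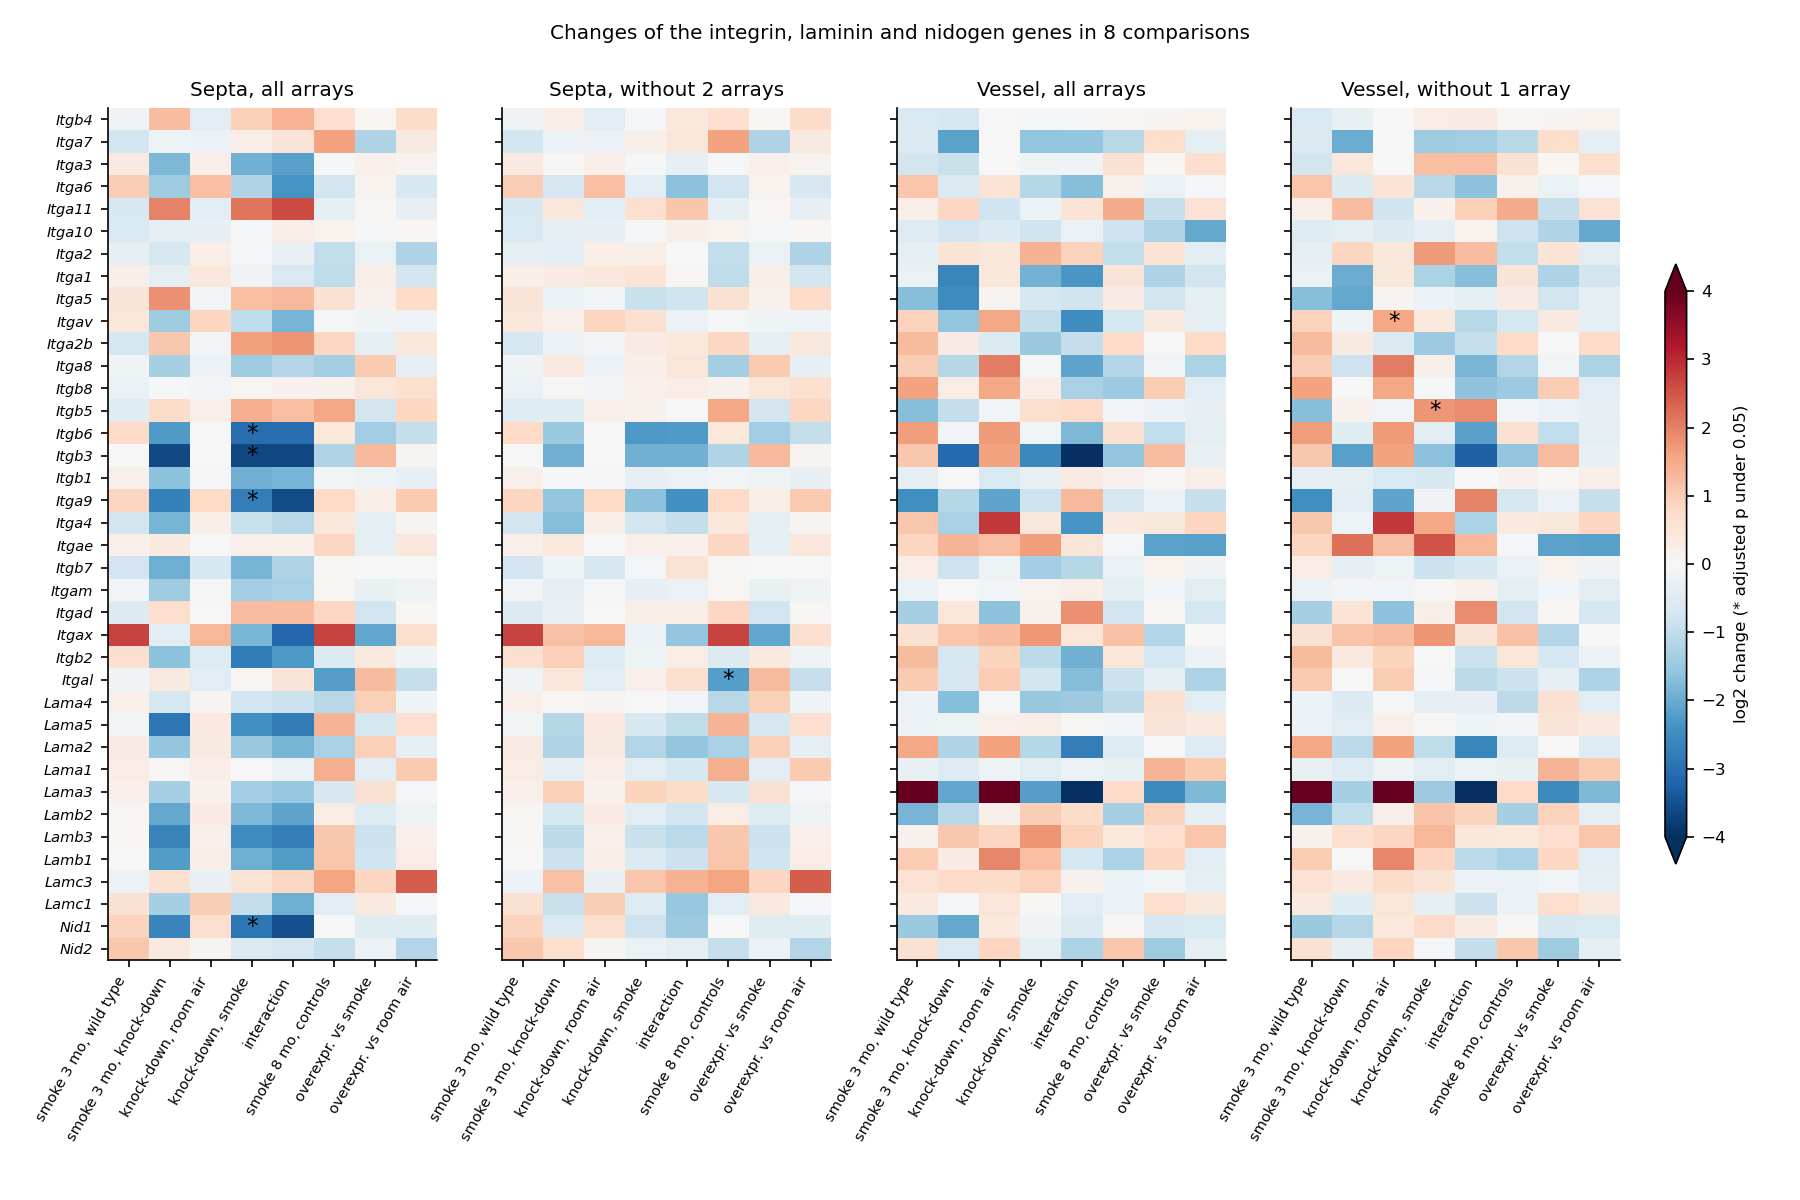
Log2 change of each of the 38 genes (rows) in 8 comparisons (columns) in septa and vessel, with all arrays and without the low-correlation arrays; red is higher and blue lower in the group named first, and a star marks a limma adjusted p under 0.05. There are 4 stars in septa and 0 in vessel with all arrays, and 1 in septa and 2 in vessel without the low-correlation arrays.

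A test of whether an effect differed between septa and vessel called 0 members in each of 7 comparisons. For knock-down under smoke 2.48% of all genes passed that test and 10 members had a limma unadjusted p under 0.05 (20.7% of all genes). Once the low-correlation arrays were left out 6 genes passed, none of them a member, and 1 member had such a p (12.3% of all genes). The closest members were Lamb3 (-4.28 ± 1.34), Lama5 (-2.67 ± 0.86) and Lamb2 (-2.77 ± 0.90, all SE), each lower in septa relative to vessel (limma adjusted p of 0.062 to 0.067). They were -2.19, -0.68 and -1.57 when the low-correlation arrays were left out (limma adjusted p of 0.463 to 0.736). For the other 6 comparisons 0% of all genes passed with all arrays. At a limma unadjusted p under 0.05 there were 2 to 5 members, beside 1.76% to 11.4% of all genes. The 5 members belonged to smoke in the knock-down, the comparison with 11.4% of all genes. The effect of smoke in wild type differed most by p at Itga9 (3.33 ± 1.02), Lama3 (-4.12 ± 1.48) and Lamb2 (1.96 ± 0.90, all SE; limma adjusted p = 1 each).

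No member was called in any of the 8 comparisons in vessel with all arrays. Among widely expressed members, the log2 difference there ran from -0.24 to 0.52 for Lama5 (lowest limma adjusted p = 0.81) and from -0.62 to 0.32 for Itgb1 (lowest limma adjusted p = 0.45). In septa without the low-correlation arrays the 7 comparisons of groups gave -0.07 to 0.36 for Itga3, -0.34 to 0.21 for Itgb1 and -0.69 to 0.34 for Lamb2. Lama4 ran in septa between -1.12 after 8 months of smoke and 0.95 in overexpression against smoke, and Lamc1 between -0.89 and 0.98. None of these 5 genes passed in septa without the low-correlation arrays.

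Among the other members followed through every comparison, with all arrays, the epithelial integrin chain Itga6 ran between -2.40 (interaction) and 1.19 (knock-down in room air) in septa and between -1.70 (interaction) and 1.11 (smoke in wild type) in vessel. Itgav ran between -1.87 and 0.87 in septa and between -2.50 and 1.53 in vessel, in each from the interaction to the knock-down in room air. Itgb6 ran between -1.80 and 1.70 in vessel, where it passed in 0 of 8 comparisons (lowest limma adjusted p = 0.38, lowest unadjusted p = 0.062). Itgb2, the partner of the leukocyte alpha chains, ran between -2.79 (knock-down under smoke) and 0.65 (smoke in wild type) in septa and between -1.94 and 1.28 in vessel. Lamb3 ran between -2.72 (interaction) and 1.07 (8-month smoke) in septa and between 0.18 and 1.76 in vessel. None of Itga6, Itgav, Itgb2 and Lamb3 passed in either compartment with all arrays, and the lowest limma adjusted p was 0.055 for Lamb3 and 0.059 for Itgb2, both in septa.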

How the data were processed

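RNA from laser-microdissected septa and vessel of mouse lung was hybridised to 1-colour Agilent arrays after Qiagen RNeasy Micro extraction, NuGEN Ovation PicoSL WTA System V2 amplification and Cy3 labelling, per the labels' protocols. The authors deposited log2 values that were already normalised between arrays: at any percentile the 68 arrays differed by at most 0.00352. The submitters' processing notes name limma; the sources used here give no further steps. The number of arrays limits the precision. Arrays were grouped by title. Of 62976 features, 43941 had 1 gene name, 33704 of them through a RefSeq accession, and 19035 had none or several and were left out.

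The brightest feature of each gene was tested with limma 3.58.1 in R 4.3.3, on means of 7 groups within each compartment and of 14 groups between compartments, with empirical Bayes moderation and Benjamini-Hochberg adjustment over all genes tested (21752 in septa, 22518 in vessel, 24152 in both), two-sided at 0.05. The scripts were tested on simulated data. Between septa and vessel every member was open to naming. Elsewhere members past the threshold (with or without the low-correlation arrays) were named, or the 3 with the smallest p where none passed, and a list of members was followed throughout. Partners were named when called, up to 4 a list. Members and lists were chosen with earlier results of these data known. Alternatives were to drop the filter, to average all probes, centred arrays, array weights, the compared groups alone, the conflicting array as knock-down, an Xist covariate, a replicate block, and leaving out each array or the low-correlation arrays. Whether shared numbers pair the samples was left unsettled. Of 34 septa and vessel pairs with the same group and number, 6 had deviations correlated over 0.1. The median was 0.0383 and the range -0.2317 to 0.3808. Arrays over the Xist threshold had the same numbers in septa and vessel in both knock-down groups and both 8-month control groups. In the wild-type and overexpression groups these numbers differed, but every group had as many such arrays in septa as in vessel. The main fits treated septa and vessel arrays as independent. Promoter windows came from RefSeq and were searched in Python 3.11.15.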

Additional observations from a re-analysis of the deposited data

Results flagged for a closer look

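In 38 group and gene combinations tested for an outlying array, 3 had 1 array far from the others of its group, where chance marks about 1 in 20. Itgal read 7.644 on replicate 4 of the 8-month smoke control septa, below the other 4 at 10.45 to 10.80. Itgb5 read 4.757 on replicate 5 of the knock-down smoke vessel, a low-correlation array, below the other 4 at 10.01 to 10.89. Itga8 read 8.486 on replicate 5 of the wild-type room air vessel, below the other 4 at 10.67 to 11.31.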

How the results depend on the processing

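Of the 16 calls between septa and vessel, 16 kept their direction and call with no filter, centred arrays, the Xist covariate and the replicate block, 15 with array weights, with the conflicting array as knock-down and without the low-correlation arrays (Lama5 was lost in each), and 14 with the mean of all probes (Itgal and Itgam were lost). Leaving out each array gave 15 to 18 calls and 1087 single-gene results kept their call, with Itgb6 losing it once. The 4 calls of knock-down under smoke in septa became 0 with no filter (limma adjusted p = 0.057), the mean of all probes, centred arrays, array weights, the compared groups alone (limma adjusted p = 0.59), the conflicting array as knock-down and without the low-correlation arrays, 15 with the Xist covariate, and 0 to 14 when 1 array was left out. Counts of 0 became, for septal smoke effects in the knock-down, 11 with the Xist covariate and 0 to 14 with 1 array left out; for the interaction in septa, 0 to 4 with 1 array left out; for 8-month smoke in septa, 2 with array weights and 1 without the low-correlation arrays; and for overexpression against room air in septa, 1 with array weights. In vessel they became 1 with array weights for smoke in wild type, 1 with the mean of all probes and 1 without the low-correlation array for knock-down in room air, 4 with array weights, 1 without the low-correlation array, 2 with the Xist covariate and 0 to 1 with 1 array left out for knock-down under smoke, and 2 with the Xist covariate and 0 to 1 with 1 array left out for the interaction. The difference of knock-down effects under smoke between compartments became 2 with the replicate block and 0 to 9 with 1 array left out, and that of smoke in the knock-down 0 to 2. None of the 20 called changes reversed under these alternatives, while the uncalled differences of Itgb1, Lamc1 and Itgax between septa and vessel changed sign without the low-correlation arrays (0.07, 0.01 and 0.22). With the replicate block, which kept the 4 and the 16 calls, the counts were 5 for knock-down under smoke in septa and 17 between septa and vessel. The cause of these changes was not tested. Counts of members under these alternatives are given here without the share of all genes called in the same fits, so they are not read as particular to the members. Comparing the groups alone has no version for septa against vessel. Values near the 40th percentile (Itgb8, Itgae, Itga5 and Itga7 in septa, Itgb6 in vessel, Lama3 in wild-type room air vessel) and near the highest deposited value (Itgam) limit how exactly a size can be given.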
